A study of Caenorhabditis elegans with 2 samples.

Results

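The piRNA cluster regions are the ChIP-seq peaks of the GFP-tagged transcription factor EGL-43 whose summits lie in either of the 2 piRNA clusters of Caenorhabditis elegans chromosome IV. Cluster 1 was taken from 4.5 to 7.0 Mb and cluster 2 from 13.5 to 17.2 Mb of the ce11 assembly. Of the 65641 peaks in the ranked list made from both replicates together, 1587 had their summit there, 835 in cluster 1 and 752 in cluster 2, against 7459 on the rest of chromosome IV. Peaks were chosen by position alone, so their number, signal and score were free to vary.

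The worms were whole L4 larvae of strain RW12181, collected at 49 hours and synchronised beforehand by bleaching and starvation at the L1 stage. A CRISPR insertion on chromosome II had tagged egl-43 with TY1::EGFP::3xFLAG, and chromatin was precipitated with an antibody against GFP. There was 1 group of 2 biological replicates. No control library and no untagged worms were analysed here, so EGL-43 binding cannot be told apart from background at these regions, and whole worms mix every cell type. Signal and score are the authors' own values for each peak. The score is the irreproducible discovery rate score deposited with each peak, which the lists of single replicates carry too, and the thresholded list holds 3146 ranked peaks with a score of at least 830. Peaks of a list share the same pair of libraries and are not replicates, so no p-value is given. The error of each comparison is shown by the lists called in each replicate alone, and by 95% Wilson intervals on shares, which cover counting error only.

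piRNAs of worms, also called 21U-RNAs, are short RNAs that begin with uridine and guide the Argonaute protein PRG-1 in the germ line, where they help to silence foreign and repetitive sequences. Most come from tiny genes packed between and within protein-coding genes of chromosome IV, each with its own promoter. That promoter carries an upstream motif with the core CTGTTTCA, which is bound by a complex that includes PRDE-1 and SNPC-4. EGL-43 is a zinc finger factor of the EVI1 family known from anchor cell invasion and neuronal development.

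The annotation held 15363 piRNA genes of 21 nt, of which 14714 lay on chromosome IV. The clusters held 14204, or 92.5% of all 15363. Cluster 1 held 2816 of them (1126 per Mb) and cluster 2 held 11388 (3078 per Mb), against 510 (45.2 per Mb) on the rest of the chromosome. The clusters were also poorer in G and C, at 34.0% in cluster 1 and 32.3% in cluster 2, against 35.5% on the rest. Coding exons took 22.7% of cluster 1 and 13.2% of cluster 2, against 25.7% of the rest. The number of protein-coding genes was 482 in cluster 1 and 459 in cluster 2, against 2340 on the rest.

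The 5 piRNA genes below were read from the RefSeq copy of the same assembly, 5′ to 3′ on the gene's strand, as 60 upstream bases followed by the 21 of the piRNA in capitals. Capitals further upstream mark CTGTTTCA. 21ur-3187 and 21ur-8220 lay nearest to the thresholded summits that were within 200 bp of a piRNA gene and over 500 bp from any other small RNA gene. The other 3 come from the 100 kb bin of each cluster with the most piRNA genes, and were picked among the first genes of that bin that carry CTGTTTCA upstream.
21ur-3187, minus strand, chrIV:5607749-5607829: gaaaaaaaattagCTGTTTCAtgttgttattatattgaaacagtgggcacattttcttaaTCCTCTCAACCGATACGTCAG
21ur-8220, minus strand, chrIV:5603155-5603235: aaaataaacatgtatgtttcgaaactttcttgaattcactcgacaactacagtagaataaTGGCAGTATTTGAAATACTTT
21ur-8742, plus strand, chrIV:5800300-5800380: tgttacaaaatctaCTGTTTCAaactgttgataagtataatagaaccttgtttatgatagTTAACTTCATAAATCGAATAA
21ur-9310, minus strand, chrIV:16002216-16002296: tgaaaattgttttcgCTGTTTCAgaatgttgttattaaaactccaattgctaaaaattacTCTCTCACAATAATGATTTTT
21ur-1585, plus strand, chrIV:16002947-16003027: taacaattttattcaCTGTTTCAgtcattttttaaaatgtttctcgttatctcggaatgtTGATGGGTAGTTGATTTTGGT
Another 3 genes picked in the same way are not shown, and their motif started 49 bases upstream in 21ur-6076, 48 in 21ur-4549 and 28 in 21ur-10605. All 5 shown begin with T, as did 95.6% of the piRNA genes of cluster 1 and 96.4% of those of cluster 2. CTGTTTCA stood on the gene's strand in the 60 upstream bases of 39.7% of the piRNA genes of cluster 1 and 33.6% of those of cluster 2, starting a median of 46 bases upstream in both. 21ur-8220 had no match there. The nearest ranked summit was 46911 bp from 21ur-8742, 1002 bp from 21ur-9310 and 1773 bp from 21ur-1585.

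The windows of 201 bp below, on the plus strand and centred on the summit, are those of strong thresholded peaks of the clusters, chosen because several are repeated sequence. Capitals in the windows ranked 2 and 4 of cluster 1 mark 114 bases that both hold, in opposite orientation. In the strongest thresholded window of each cluster they mark 14 bases shared by both, and in the windows at B0350.t1, Y7A9D.t2 and Y105C5B.t1 the tRNA gene.
Cluster 1 rank 1, chrIV:4725472-4725672: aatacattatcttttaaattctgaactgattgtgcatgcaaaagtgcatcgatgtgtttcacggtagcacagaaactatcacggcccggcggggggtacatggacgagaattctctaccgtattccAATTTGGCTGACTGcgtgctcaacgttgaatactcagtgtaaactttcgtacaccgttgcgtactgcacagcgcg
Cluster 1 rank 2, chrIV:4727937-4728137: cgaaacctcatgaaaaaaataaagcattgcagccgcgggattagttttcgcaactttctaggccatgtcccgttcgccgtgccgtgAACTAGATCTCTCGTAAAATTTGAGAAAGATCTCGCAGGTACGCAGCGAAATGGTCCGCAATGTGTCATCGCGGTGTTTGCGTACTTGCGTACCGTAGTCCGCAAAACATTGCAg
Cluster 1 rank 4, chrIV:4720605-4720805: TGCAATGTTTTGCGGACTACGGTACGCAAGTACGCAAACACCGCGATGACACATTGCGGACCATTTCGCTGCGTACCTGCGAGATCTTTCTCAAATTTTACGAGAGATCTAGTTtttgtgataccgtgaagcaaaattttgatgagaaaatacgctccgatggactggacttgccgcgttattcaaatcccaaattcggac
Cluster 1 rank 5 (B0350.t1), chrIV:5967104-5967304: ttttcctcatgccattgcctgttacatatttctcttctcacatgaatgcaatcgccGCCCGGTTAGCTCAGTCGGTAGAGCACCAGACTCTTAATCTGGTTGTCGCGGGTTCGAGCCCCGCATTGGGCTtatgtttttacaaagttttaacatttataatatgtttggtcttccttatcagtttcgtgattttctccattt
Cluster 2 rank 1, chrIV:16845458-16845658: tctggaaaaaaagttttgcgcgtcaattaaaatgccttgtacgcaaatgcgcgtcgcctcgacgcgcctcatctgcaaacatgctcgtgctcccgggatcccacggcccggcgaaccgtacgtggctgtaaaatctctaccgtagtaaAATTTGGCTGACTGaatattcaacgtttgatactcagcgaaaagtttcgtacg
Cluster 2 rank 2 (Y7A9D.t2), chrIV:16389160-16389360: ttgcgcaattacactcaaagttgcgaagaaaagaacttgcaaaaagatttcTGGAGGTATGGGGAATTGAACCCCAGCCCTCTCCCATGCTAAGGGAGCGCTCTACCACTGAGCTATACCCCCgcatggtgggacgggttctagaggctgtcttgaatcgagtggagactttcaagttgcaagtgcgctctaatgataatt
Cluster 2 rank 3 (Y105C5B.t1), chrIV:15931955-15932155: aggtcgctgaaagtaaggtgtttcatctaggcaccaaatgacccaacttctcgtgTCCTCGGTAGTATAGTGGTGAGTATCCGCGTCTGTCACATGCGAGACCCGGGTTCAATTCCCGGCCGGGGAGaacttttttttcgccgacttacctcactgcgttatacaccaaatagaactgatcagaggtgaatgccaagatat
The shared 14 bases, AATTTGGCTGACTG, occurred 16 times in the genome on either strand, and 5 of those had a thresholded summit within 100 bp. The word was picked because 2 thresholded windows share it, so those 2 sites are among the 5 by construction. A word of 15 bases shared by the windows ranked 2 and 4 of cluster 2 occurred 60 times, with 3 that near a thresholded summit. It was picked in the same way, so 2 of those 3 are again there by construction. No share for other words was computed.

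Peaks were sparse in both clusters. Cluster 1 had 334.0 ranked peaks per Mb and cluster 2 had 203.2, against 660.4 on the rest of chromosome IV and 654.6 over all chromosomes. Both clusters together had 256.0 ranked peaks per Mb, 0.388 times the density of the rest. The ratio was 0.397 in the list of replicate 1, with 282.9 per Mb in the clusters and 712.0 on the rest, and 0.375 in the list of replicate 2, with 246.3 and 656.4. The replicates therefore differed far less from each other than the clusters did from the rest.

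The rest of the chromosome was itself uneven. It had 950.7 ranked peaks per Mb on the arm left of cluster 1, 470.0 between the clusters and 428.8 on the short stretch right of cluster 2, and both clusters lay below each of these. Windows at the same relative positions of chromosomes I, II, III and V had 462.5 to 1022 ranked peaks per Mb, again all above the clusters.

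Thresholded peaks were sparse as well. The clusters held 89 of them, 38 in cluster 1 (15.2 per Mb) and 51 in cluster 2 (13.8 per Mb), against 361 (32.0 per Mb) on the rest. Their density was 0.476 times that of the rest in cluster 1, where ranked density was 0.506 times, and 0.431 times in cluster 2, where ranked density was 0.308 times. Over both clusters it was 0.449 times. Among the relative windows of the other chromosomes it ran from 16.9 to 49.8 per Mb, with the lowest value on chromosome V close to the clusters.

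The share of ranked peaks that reached the thresholded list was 4.55% in cluster 1 (interval 3.33 to 6.19%) and 6.78% in cluster 2 (5.20 to 8.81%). Against these stood 4.84% on the rest of chromosome IV (4.38 to 5.35%) and 4.79% over all chromosomes. Both clusters together gave 5.61% (4.58 to 6.85%), an interval that overlaps that of the rest. In the list of replicate 1 the share was 2.74% in the clusters, against 1.97% on the rest and 2.19% over all chromosomes. In that of replicate 2 it was 3.54% in the clusters, against 2.31% on the rest and 2.51% over all chromosomes. The share in the clusters was thus near the background or above it in all 3 lists.

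Median signal was much alike in the series list. The median signal of ranked peaks was 43.8 in cluster 1 and 45.5 in cluster 2, against 41.0 on the rest. The quartiles over both clusters, 26.02 and 66.8, lay close to the 22.8 and 64.0 of the rest. Thresholded peaks had a median signal of 143.8 in cluster 1 and 138.2 in cluster 2, against 135.5 on the rest. The upper quartile of thresholded signal was higher in the clusters, at 225.4 against 176.6 on the rest. In replicate 1 the median thresholded signal was 117.8 in the clusters against 96.1 on the rest, and in replicate 2 it was 102.5 against 99.8. The clusters thus had fewer peaks per Mb with a similar median signal in the series list.

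The plot of 100 kb bins shows how the peaks were spread. Bins of cluster 1 held a median of 21.0 ranked peaks (range 0 to 105) and bins of cluster 2 a median of 14 (0 to 72), against 68.5 (4 to 141) over the 112 bins of the rest. Only 4 of 25 bins in cluster 1 and 1 of 37 in cluster 2 reached the median of the rest. No thresholded peak lay in 15 of the 25 bins of cluster 1 and 18 of the 37 of cluster 2, against 10 of 112 on the rest.

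**Figure D1:**
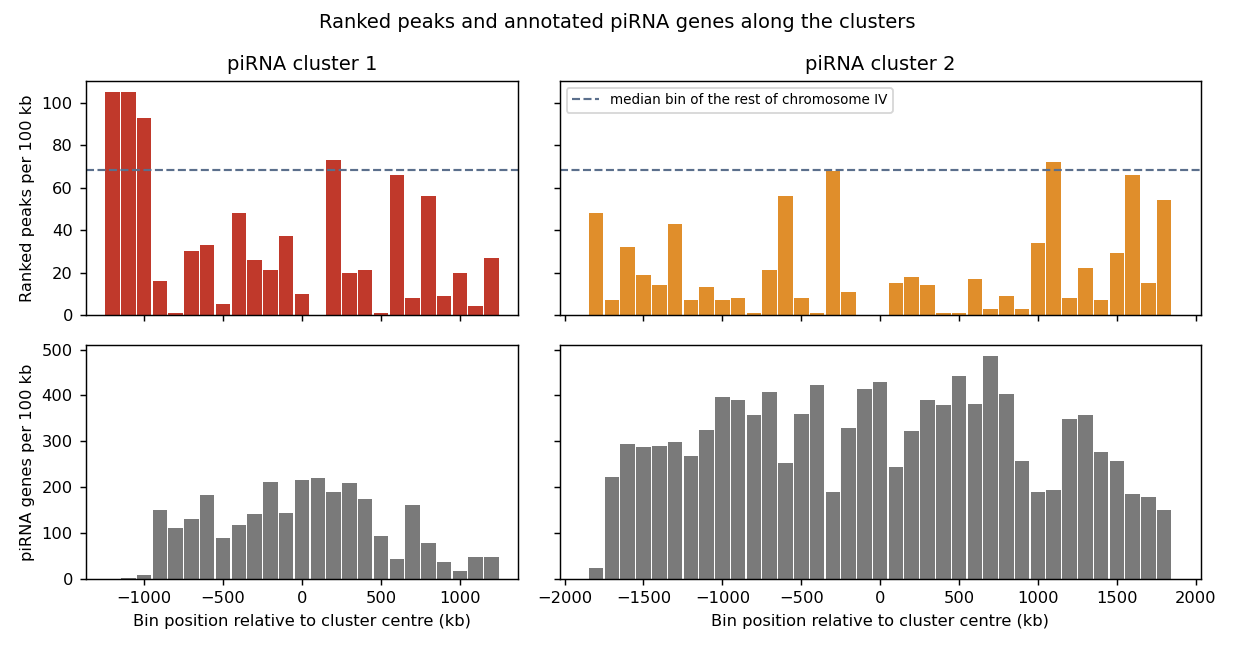
Ranked peaks (top) and annotated piRNA genes (bottom) per 100 kb bin, against the position of the bin relative to the centre of the cluster in kb, for cluster 1 (left) and cluster 2 (right). The dashed line is the median of the rest of chromosome IV, 68.5 ranked peaks per bin, which 4 bins of cluster 1 and 1 bin of cluster 2 reach.

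The start of cluster 1 stood apart. Its first 250 kb held only 2 of the cluster's 2816 piRNA genes but 259 of its 835 ranked peaks and 18 of its 38 thresholded ones. The same width just outside held 9 piRNA genes, 272 ranked and 12 thresholded peaks. Ranked density was thus about the same on either side of that boundary, and thresholded peaks were more numerous inside it. At the start of cluster 2 the first 250 kb inside held 428 piRNA genes, 62 ranked peaks and 1 thresholded peak, against 5 piRNA genes, 205 ranked and 10 thresholded peaks in the 250 kb outside. Peaks were fewer there on the side where piRNA genes were many.

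The bins richest in piRNA genes held few or no peaks in cluster 2, and between 0 and the cluster's median in cluster 1. In cluster 1 the bin from 5.8 to 5.9 Mb had 220 piRNA genes and 0 ranked peaks in the series list, 0 in replicate 1 and 6 in replicate 2. That bin holds 21ur-8742. The next bins had 215 piRNA genes and 10 ranked peaks, and 211 piRNA genes and 21 ranked peaks, which is the median of the cluster. In cluster 2 the bin from 16 to 16.1 Mb, which holds 21ur-9310 and 21ur-1585, had 486 piRNA genes and 3 ranked peaks, and the next had 442 and 1. The bin from 15.3 to 15.4 Mb had 430 piRNA genes and 0 ranked peaks in the series list and in both replicates.

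Conversely, the bins with the most thresholded peaks in cluster 1 were those from 4.5 to 4.8 Mb, with 0, 1 and 8 piRNA genes and 6, 5 and 8 thresholded peaks. In cluster 2 they were the bins from 16.4 to 16.5 Mb (7 thresholded peaks, 193 piRNA genes), 16.3 to 16.4 Mb (6 and 189) and 14.6 to 14.7 Mb (5 and 407). The last of these shows that many piRNA genes and thresholded peaks can share a bin in the series list. Most of its 5 lay in dmd-6, and each replicate list had only 1 thresholded peak in that bin. Across the 25 bins of cluster 1 Spearman's rho between ranked peaks and piRNA genes was -0.34 (replicate lists -0.42 and -0.36), and across the 37 bins of cluster 2 it was -0.66 (-0.70 and -0.67). The bins share the same libraries, and ranked peaks also followed GC content across them, with rho 0.74 in cluster 1 and 0.68 in cluster 2.

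At the scale of single genes, summits lay away from piRNA genes. A piRNA gene lay within 200 bp of 3.83% of ranked summits of cluster 1 (2.73 to 5.36%) and 4.79% of those of cluster 2 (3.48 to 6.56%). Of all bases, 30.1% in cluster 1 and 57.5% in cluster 2 lay that near. The median ranked summit was 6058 bp from the nearest piRNA gene in cluster 1 and 5965 bp in cluster 2, whereas the median base was 572 bp away in cluster 1 and 145 bp away in cluster 2.

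Over both clusters the share of summits within 200 bp was 0.0923 times the share of bases in the series list, 0.130 times in replicate 1 and 0.110 times in replicate 2. On the rest of chromosome IV the shares were 0.523% of ranked summits and 1.57% of bases, a ratio of 0.332. Only 2 ranked summits of the clusters lay inside a piRNA gene, both in cluster 2. Within 500 bp of a piRNA gene, 38 summits of cluster 1 lay upstream of its start and 43 at or downstream of it, and in cluster 2 the numbers were 41 and 48, so neither side was preferred.

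The plot of density by distance shows a steady gradient. Over both clusters there were 10.7 ranked summits per Mb of bases under 100 bp from a piRNA gene, 51.7 from 100 to 199 bp, 106 from 200 to 499 bp and 169 from 500 to 999 bp. Density was 236 per Mb from 1000 to 1999 bp, 630 from 2000 to 4999 bp and 1039 at 5000 bp and beyond. The farthest class thus exceeded the 660.4 per Mb of the rest of chromosome IV, with 895.7 per Mb in cluster 1 and 1281 in cluster 2. On the rest, density was also lower near piRNA genes, at 132.5 per Mb under 100 bp against 753.5 at 5000 bp and beyond. Bases that far from a piRNA gene were 21.6% of cluster 1 and 8.63% of cluster 2, yet held 484 of 835 and 409 of 752 ranked summits.

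**Figure D2:**
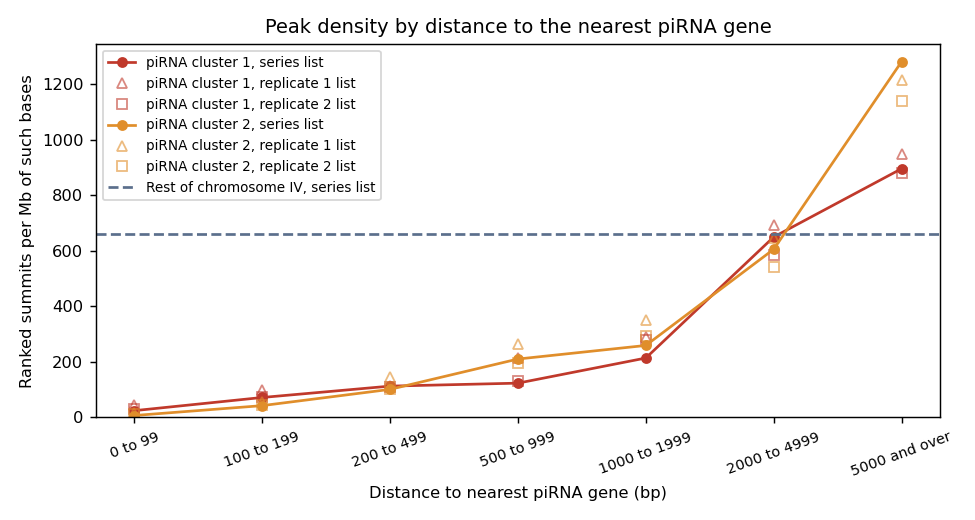
Ranked summits per Mb of bases (vertical axis) by distance to the nearest piRNA gene in bp (horizontal axis, 7 classes), for cluster 1 (red) and cluster 2 (orange). Filled points are the series list, open triangles replicate 1 and open squares replicate 2, and the dashed line is the rest of chromosome IV at 660.4 per Mb, which both clusters pass in the series list only in the class of 5000 bp and over.

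Seen from the piRNA genes, few had a peak. A ranked summit lay within 200 bp of the start of 39 of 2816 piRNA genes of cluster 1 (1.39%) and 47 of 11388 of cluster 2 (0.413%). Both clusters together gave 86 of 14204 (0.606%), against 120 of the 1159 piRNA genes elsewhere in the genome (10.4%, interval 8.73 to 12.2%). In replicate 1 the shares were 0.936% in the clusters and 11.9% elsewhere, and in replicate 2 they were 0.704% in the clusters and 10.7% elsewhere. A thresholded summit lay that near 4 piRNA genes of cluster 1 and 0 of cluster 2, where a count of 0 allows up to 0.0337% by the upper Wilson bound, against 5 of the 1159 elsewhere.

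The piRNA upstream motif was scarce around summits. CTGTTTCA, on either strand within 50 bp, was found at 5 of 835 ranked summits of cluster 1 (0.599%) and 1 of 752 of cluster 2 (0.133%). Of all windows of 101 bp, 4.98% in cluster 1 and 8.97% in cluster 2 held it. On the rest of chromosome IV 0.335% of ranked summits and 0.760% of windows held it. None of the 89 thresholded summits of the clusters had it, which allows up to 4.14%. The shorter core GTTTC, contained in CTGTTTCA, was at 209 of the 835 ranked summits of cluster 1 and 168 of the 752 of cluster 2 (22.3%). Of all windows, 34.0% in cluster 1 and 39.1% in cluster 2 held the core. The rest of chromosome IV had the core at 23.3% of ranked summits and in 26.1% of windows.

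Base composition moved with these differences. The 201 bp around ranked summits had a median GC content of 42.8% in cluster 1 and 43.8% in cluster 2, and of 42.8% on the rest, whereas the surroundings of the median base had 33.3% in cluster 1 and 30.8% in cluster 2, and 35.3% on the rest. The plot by GC content shows a steep climb in all 3 regions. Where GC content was 45% or more there were 1661 ranked summits per Mb in cluster 1 and 1137 in cluster 2, against 2390 on the rest, and from 30 to 35% there were 77.8 and 68.3, against 210.5. In each of the 6 GC classes both clusters were below the rest.

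**Figure D3:**
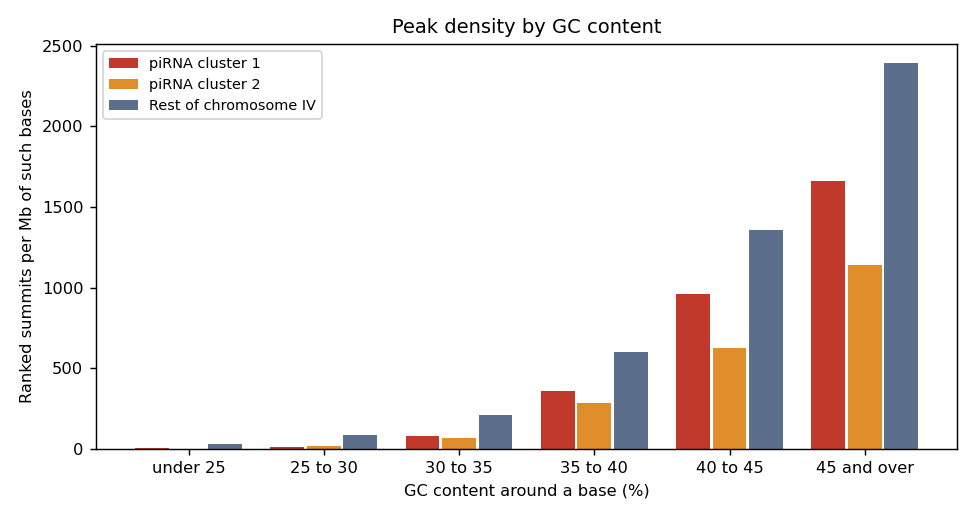
Ranked summits per Mb of bases (vertical axis) by the GC content of the surrounding 201 bp in % (horizontal axis, 6 classes), for cluster 1, cluster 2 and the rest of chromosome IV. In every class both clusters lie below the rest, and in all 3 regions density climbs with GC content, to 1661, 1137 and 2390 per Mb in the highest class.

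Matching on composition, which was added after the data were seen, removed part of the difference. From the densities of the rest of chromosome IV at the same GC class and base class (coding exon, promoter, other gene body or outside genes), 2987 ranked peaks would be counted in the clusters, and 1587 were. That is 0.531 times the number, where length alone gave 0.388. It was 0.625 times in cluster 1 and 0.455 times in cluster 2. Replicate 1 gave 0.532 and replicate 2 gave 0.509 over both clusters. For thresholded peaks the matched ratio was 0.581, with 89 found where 153.2 would be counted. It was nearer 1 in the replicate lists, at 0.709 in both. Replicate 1 had 48 where 67.7 would be counted, and replicate 2 had 54 where 76.2 would be.

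The same matching was made within each cluster, setting bases within 200 bp of a piRNA gene against those farther away. Cluster 1 had 32 ranked summits near piRNA genes where 109.5 would be counted, 0.292 times as many (replicates 0.350 and 0.316). Cluster 2 had 36 where 301.1 would be counted, 0.120 times as many (replicates 0.154 and 0.172). Without matching the ratios were 0.0926 in cluster 1 and 0.0372 in cluster 2. After matching on these classes, a lower density near piRNA genes remained in both clusters and both replicates. The GC classes are broad, so GC content can still differ within a class. Outside genes and promoters of cluster 2, for example, median GC content was 27.4% near piRNA genes and 34.3% farther away. Finer matching was not tested.

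Thresholded peaks near piRNA genes were few in both clusters. In the series list cluster 1 had 3 where 2.23 would be counted after matching, and cluster 2 had 0 where 9.43 would be counted. Replicate 1 had 1 where 1.48 would be counted in cluster 1, and 0 where 5.22 would be in cluster 2. Replicate 2 had 2 where 1.17 would be counted in cluster 1, and 1 where 6.24 would be in cluster 2. The 3 of cluster 1 include a peak on the tRNA gene B0350.t1 and a fkh-7 peak of signal 9.06. These are small numbers, and the difference between the clusters was not tested. At 5000 bp or more from piRNA genes, both clusters held 893 ranked peaks where 682.1 would be counted from the rest of the chromosome (1.31 times) and 39 thresholded peaks where 39.8 would be (0.979 times). The first 250 kb of cluster 1, with 2 piRNA genes and 259 ranked peaks, borders the left arm with its 950.7 ranked peaks per Mb. That stretch counts mostly as far from piRNA genes, here and in the matching within cluster 1, and was not set aside.

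The peaks of cluster 1 ranked 1, 2 and 4 by signal lay in its first 250 kb, the stretch that holds 2 piRNA genes. The highest, at chrIV:4725468-4725719, was 259 bp outside K08F11.1 and 4136 bp from a piRNA gene, and had a signal of 769.7 in the series list, 436.9 in replicate 1 and 339.7 in replicate 2. The next, at chrIV:4727940-4728179, was 1671 bp from a piRNA gene and had 733.6, with 365.5 in replicate 1 and 370.8 in replicate 2. The one ranked 4, at chrIV:4720616-4720793, had 383.8, with 170.4 in replicate 1 and 212.0 in replicate 2. All 3 were high in both replicates.

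These 3 windows are repeated sequence, and those ranked 2 and 4 share the long stretch in capitals above. The summits ranked 2 and 4 were 7332 bp apart. At 80% identity or more over at least 80 bp, the window ranked 1 had 7 other copies in the genome, that ranked 2 had 12 and that ranked 4 had 7. The strongest thresholded peak of cluster 2, at chrIV:16845499-16845648 with signal 360.6 (141.0 in replicate 1 and 220.3 in replicate 2), had 8. Reads of near-identical copies can be shared among them, and the sources used here do not say how that was handled, so the signal of one copy is uncertain.

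Other strong peaks of cluster 1 had no such copies and lay at promoters. They include Y17G9B.5 (signal 501.1), sqd-1, which encodes an RNA-binding protein (313.6, summit 314 bp upstream), cyc-2.1, a cytochrome c gene (242.9), usp-4 (240.9), F29B9.11 (225.4) and sar-1, a small GTPase of vesicle budding (205.0). In replicate 1 these 6 had signals from 106.4 at sar-1 to 247.4 at Y17G9B.5, and in replicate 2 from 97.2 at sar-1 to 261.3 at Y17G9B.5. All 6 were thus found in both replicates with sar-1 lowest and Y17G9B.5 highest. The protein-coding gene nearest to the sqd-1 summit was Y73B6BL.29, 293 bp away.

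tRNA genes carried many of the strong peaks of cluster 2. Of its 51 thresholded summits 11 had a tRNA gene within 200 bp (21.6%, 12.5 to 34.6%), and cluster 1 had 1 of 38. Both clusters together had 12 of 89 (13.5%, 7.88 to 22.1%), against 19 of 361 (5.26%, 3.40 to 8.07%) on the rest of chromosome IV. Counted over tRNA genes, 1 of 9 in cluster 1 and 11 of 32 in cluster 2 had a thresholded summit within 200 bp, against 19 of 30 on the rest. tRNA genes thus made up more of the thresholded peaks in cluster 2 than on the rest, while a smaller part of the tRNA genes had one.

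Among the 10 strongest thresholded peaks of cluster 2, 6 lay on a tRNA gene. Y7A9D.t2 (tRNA-Ala) had a signal of 341.3, with 188.6 in replicate 1 and 161.1 in replicate 2. Y105C5B.t1 (tRNA-Asp), inside srv-16, had 318.8, with 184.2 in replicate 1 and 142.4 in replicate 2. Y43D4A.t2 (tRNA-Gly) had 308.7, and Y65A5A.t2 and Y65A5A.t1 (both tRNA-Ala) and Y65A5A.t4 (tRNA-His) had 299.7, 294.7 and 291.2. These 6 windows had 15 to 29 other copies each.

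The only thresholded tRNA peak of cluster 1, at B0350.t1 (tRNA-Lys), had a signal of 327.0, with 144.5 in replicate 1 and 172.0 in replicate 2. It lay 95 bp from a piRNA gene and was the strongest thresholded peak within 200 bp of one. Its window had 29 other copies, of which 15 had a thresholded summit. Its summit lay on the tRNA gene.

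The other thresholded peaks within 200 bp of a piRNA gene were both in fkh-7, a forkhead transcription factor gene. That at chrIV:5607442-5607771, 142 bp from 21ur-3187, had a signal of 191.7, with 88.5 in replicate 1 and 99.3 in replicate 2. That at chrIV:5602962-5603291, 28 bp from 21ur-8220, had only 9.06 and no matching ranked peak in replicate 2. Its summit lay close beside that of a stronger peak at chrIV:5602761-5603090 with signal 115.0, which had 59.4 in replicate 1 and no matching ranked peak in replicate 2 either. Cluster 2 had no thresholded peak within 200 bp of a piRNA gene, and its nearest was 335 bp away, in dmd-6.

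Protein-coding promoters, taken as the 1000 bp before a start site and the 500 bp after it, held 21 of 38 thresholded summits of cluster 1 (55.3%) and 23 of 51 of cluster 2 (45.1%), against 170 of 361 on the rest (47.1%). Promoters took 32.0% of the bases of cluster 1 and 22.3% of those of cluster 2, against 34.3% of the rest. A thresholded summit lay in the promoter of 26 of the 482 protein-coding genes of cluster 1 (5.39%, 3.71 to 7.79%) and 24 of 459 of cluster 2 (5.23%, 3.54 to 7.66%). On the rest of chromosome IV 182 of 2340 had one (7.78%), and over the genome 1518 of 19973 (7.60%).

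Some further genes are named here after their values were seen, and stand for no class of genes. fkh-7 had 4, at signals of 191.7, 131.4, 115.0 and 9.06. dmd-6, a gene of the DM domain family of sexual regulators, had 4 within it, at 151.0, 138.2, 127.1 and 17.3. lag-1, which encodes the DNA-binding effector of Notch signalling, had 2 at 121.1 and 59.6, and zip-7, a bZIP factor gene, had 301.7 at its start and 139.0 nearby. rho-1, a small GTPase gene, was the nearest gene to 4, at 299.7, 133.5, 127.5 and 93.7. gtsf-1, a small RNA pathway gene in cluster 2, had a peak of 128.1 whose summit was 62 bp upstream.

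The plot of replicate signals gives all matched thresholded peaks. Of the 89, 42 overlapped a thresholded peak of replicate 1 and 50 one of replicate 2. Both replicates had one at 33 (37.1%, 27.8 to 47.5%), against 99 of 361 on the rest of chromosome IV (27.4%, 23.1 to 32.3%), and 30 had one in neither. The authors' threshold for the series list thus kept peaks that neither replicate list kept. A ranked peak of replicate 1 overlapped all 89, and one of replicate 2 overlapped 87, the exceptions being the 2 fkh-7 peaks just described. Spearman's rho between the 2 replicates' signals, over the 87, was 0.668 and is a description, since the points share libraries.

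**Figure D4:**
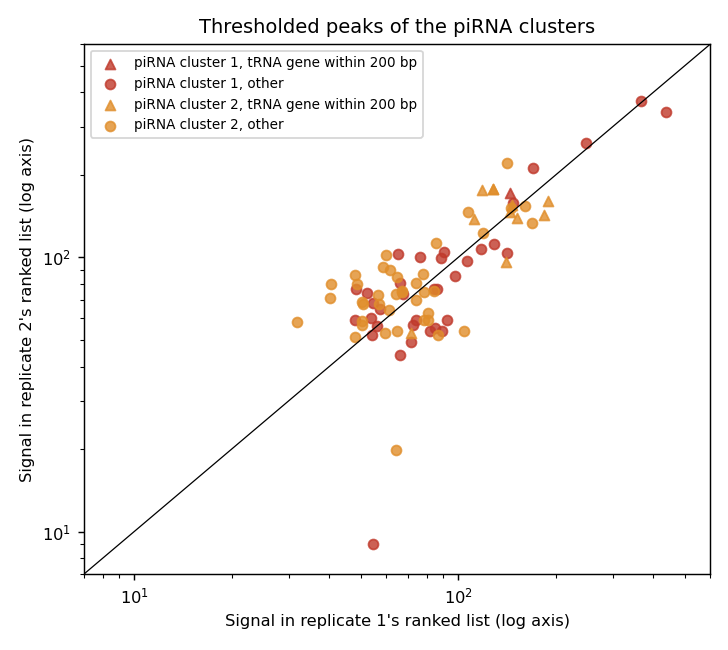
Signal of the overlapping ranked peak in replicate 1 (horizontal, log axis) and replicate 2 (vertical, log axis) for 87 of the 89 thresholded peaks of the clusters, with triangles for peaks within 200 bp of a tRNA gene and a line of equal signal. The points follow the line, with those of cluster 1 rank 1 and rank 2 at the top right and 2 peaks with replicate 2 signals of 9.01 and 19.9 below it.

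A few peaks need care. In lag-1, dmd-6, fkh-7 and at Y65A5A.t4 a weaker thresholded peak lay close beside a stronger one, with signals of 59.6, 17.3, 9.06 and 16.8, and shared its overlapping peak in replicate 1. In cluster 2, 2 ranked peaks passed the lowest score of the thresholded list but are not in it. They are at chrIV:14780007-14780122 with signal 639.9 (366.5 in replicate 1 and 270.7 in replicate 2), which is the highest signal of that cluster, and at chrIV:14779305-14779634 with 208.2. Both lie in a tandem repeat with 55 and 56 other copies, and the sources used here do not say why they were left out.

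Genes that make piRNAs, or that belong to related small RNA pathways, were looked at in 2 lists. Over all protein-coding genes 7.60% had a thresholded promoter summit. Of 19 genes for piRNA transcription and processing, 1 had one, and of 10 other genes of germline small RNA pathways, 1 had one. The first was tofu-1, a gene needed for 21U-RNA formation, with a peak at chrV:9980710-9981039 and signal 204.8. The second was csr-1, an Argonaute gene on the rest of chromosome IV, with 122.1. unc-130, a forkhead gene with a role at piRNA promoters, had a ranked peak of signal 109.0 that missed the threshold with a score of 613. prg-1, the Argonaute itself, had no thresholded summit, with 48.7 as its highest ranked promoter signal. Of the list members only slfl-4 lies in a cluster, and it had no ranked promoter peak.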

How the data were processed

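ChIP-seq was carried out on 2 biological replicates of 1 group. The authors deposited ranked and thresholded peak lists on ce11, per the labels, for each replicate and for both together, the latter also in a conservative version. No aligner or peak caller is named in the sources used here, and read depth is unknown. The score of each peak is the authors' deposited IDR score, signal is the authors' deposited signal value, and the summit offset in bp is as deposited. Other columns were not used.

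From these lists, summits were counted by position. The ranked list used is the one that contains all 3146 thresholded peaks of the series. Genes came from Ensembl release 115 (WBcel235, the same assembly) and sequence from RefSeq. The replicate signal of a peak is that of the overlapping ranked peak (at least 1 bp) with the nearest summit. Counts called "would be counted" apply the density of the comparison bases, by GC class and base class, to the bases of the cluster. Copies were found with BLAST 2.17.0 at an E value of at most 1e-5. Python 3.11.15, numpy 2.4.6, pandas 2.3.3 and scipy 1.17.1 were used, and counting was tested on simulated data.

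Named were, per cluster, the 10 thresholded peaks of highest signal, thresholded peaks within 200 bp of a piRNA gene and over 500 bp from other small RNA genes, 3 bins of each kind, and list members with a promoter summit. The members and lists were chosen with earlier results of these data known. Alternatives were other boundaries, lists, distances, filters and comparison regions.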

Additional observations from a re-analysis of the deposited data

How the results depend on the processing

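No paired analysis was possible because the samples form 1 group. Ratios are the clusters over the rest of chromosome IV unless said otherwise. The ratio of ranked density was 0.388 as reported, 0.375 to 0.397 with 1 replicate left out, 0.337 with boundaries moved in by 250 kb, 0.483 with them moved out, 0.423 for peaks at or above the median signal and 0.320 against like windows of other chromosomes. Cluster 1 alone gave 0.506 and cluster 2 alone 0.308, and matching gave 0.515 on GC content, 0.427 on base class and 0.531 on both. The ratio of thresholded density was 0.449 as reported, and 0.392 and 0.544 with boundaries moved in and out. It was 0.483 for conservative lists, 0.553 to 0.575 with 1 replicate left out, 0.404 without peaks near small RNA genes, 0.476 for cluster 1 and 0.431 for cluster 2. Matched, it was 0.598 on GC content, 0.467 on base class and 0.581 on both. The ratio of the thresholded share was 1.16, 1.39 to 1.53 with 1 replicate left out, 1.05 without peaks near small RNA genes, 1.06 at or above the median signal, 1.43 against like windows and 1.40 for cluster 2, but 0.940 for cluster 1, the other side of 1. The ratio of median ranked signal was 1.08, 1.07 to 1.11 with 1 replicate left out and 1.03 with boundaries moved in. For peaks at or above that list's median it was 0.999, just under 1. That of thresholded signal was 1.03, and 1.03 to 1.23 with 1 replicate left out.

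The share of summits near piRNA genes over the share of bases was 0.0923, 0.110 to 0.130 with 1 replicate left out, 0.113 with boundaries moved in, 0.0780 at or above the median signal and 0.127 for cluster 1. Within 100, 500 and 1000 bp it was 0.0455, 0.174 and 0.233. The percentage of piRNA genes with a summit was 0.606, 0.704 to 0.936 with 1 replicate left out, 0.260 at or above the median signal, 1.39 for cluster 1 and 0.413 for cluster 2, and 0.169, 2.03 and 3.18 within 100, 500 and 1000 bp. For the motif, the ratio of summits to all windows was 0.0514, and 0.641 for the core GTTTC. Each cluster alone and the matching were chosen after seeing the data. The cause of these shifts was not tested. Of 96 alternatives in all, 49 moved a value by no more than the spread between replicates or, for the motif, its interval. Another 45 moved it further, and 2 fell on the other side of 1. The 49 include settings that could not change a value. These are merging summits and, for results on ranked peaks alone, counting every ranked peak past the lowest score as thresholded. No summits lay within 150 bp of each other, so merging changed nothing. Unknown read depth limits what can be said of single weak peaks.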
